A study of Homo sapiens with 12 samples.

Results

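The comparison described here is the difference of the T3 response between 2 vectors in the SW1736 line, which derives from an anaplastic carcinoma of the thyroid. It used all 12 libraries of the series, so its members are 12 of 12 samples. All cells carried a stably introduced pCDH vector, either pCDH-TRB for thyroid hormone receptor beta (TRB) or the empty pCDH-EV (EV), and whether each line was a clone or a pool was not given in the sources used here. All cells were first kept for 24 h without hormone in charcoal-stripped serum free of phenol red, followed by 24 h of triiodothyronine (T3) at 10 nM or of NaOH, the vehicle. The 4 groups, named EV-vehicle, EV-T3, TRB-vehicle and TRB-T3 below, each had 3 libraries of total RNA. The quantity reported is the T3 effect with TRB minus the T3 effect with EV, on the log2 scale, called the response difference below. It is positive where T3 moved a gene further up, or less far down, in TRB cells.

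T3 enters cells through membrane carriers and binds nuclear receptors encoded by THRA and THRB. These receptors sit on DNA, often with a retinoid X receptor partner, at elements built from the hexamer AGGTCA. Without hormone they hold corepressors at some genes, and with hormone they exchange them for coactivators, so a target can move on binding of T3 and on a change in the amount of receptor.

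The libraries held 3819306 to 13086717 counts in genes. The library of TRB-T3 replicate 2 stood apart: its differences from the other TRB-T3 libraries followed the GC content of the genes (Spearman correlation across 12157 genes -0.885, a description with no test), and its TMM scaling factor was 0.786 against 0.9953 to 1.054 in the other 11. Results are therefore given with all 12 libraries and with the 11 that remain without it. EV-T3 replicate 3 was the shallowest library, and 91.95% of everything its file counts were alignments that were not unique. In a chi-square distance per gene, EV-T3 replicate 2 lay 25.71 and 36.37 from replicates 1 and 3 of its group, which lay 9.854 apart. For TRB-T3 replicate 2 these distances were 220.3 and 207.3, against 3.582. The fit of 11 libraries keeps EV-T3 replicate 2. KRT8, KRT18 and KRT19, keratins of epithelial cells, were abundant in all libraries, and PAX8, a thyroid transcription factor, stood at 0.72 to 6.98 counts-per-million (cpm, in lower case to keep the unit apart from the gene CPM). VIM, the remaining marker of the line, had too few counts to be tested with 12 libraries and was tested with 11. Of 10 leukocyte and endothelial markers, 4 were at 0 in every library. The others included LYZ, which was abundant in all groups, and the summed level of the list was 787.8 to 1589 cpm in TRB-T3, against 804.1 to 982.8 in TRB-vehicle, 1131 to 1407 in EV-T3 and 1268 to 1465 in EV-vehicle. Nothing in the labels says that the libraries of a group came from separate cultures, so p-values measure only the spread between these samples.

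THRB served as the check of the labels. It stood at 13, 15.2 and 15.6 cpm in EV-vehicle, 12.3, 18.3 and 14.2 in EV-T3, 80.2, 79.8 and 80.4 in TRB-vehicle, and 322, 190.3 and 297 in TRB-T3. Every TRB library was above every EV library, and the TRB-T3 libraries were highest. THRB counts in TRB cells include any transcript of the vector, which the gene counts cannot tell apart from the cell's own. Its response difference was 1.72 ± 0.31 log2 units (SE) with 12 libraries (edgeR adjusted p = 0.0187) and 1.95 ± 0.20 with 11 (edgeR adjusted p = 5.48e-05). Without each library in turn, its call was lost in 8 of 12 fits, with an adjusted p of up to 0.0787. THRA, the gene of the other receptor, had a response difference of -0.82 ± 0.64 with 12 and -0.33 ± 0.18 with 11 libraries and passed in neither (edgeR adjusted p = 0.429 and 0.236).

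The response to T3 differed between the vectors for 374 of 14431 genes tested, 2.59%, with 12 libraries (edgeR's quasi-likelihood test, Benjamini-Hochberg adjusted p under 0.05). Of these, 255 had a more positive response with TRB (1.77% of genes tested) and 119 a more negative one (0.825%). With 11 libraries 2259 of 14825 genes passed, 15.2%, of which 1268 were more positive (8.55%) and 991 more negative (6.68%). All 374 genes of the larger set of libraries were called again with 11, in the same direction. T3 itself moved 2128 genes in TRB cells (14.7%) and 33 in EV cells (0.229%) with 12 libraries, and 4938 (33.3%) and 1087 (7.33%) with 11. In each fit the 4 groups share an estimate of the spread, so TRB-T3 replicate 2 enters the tests of EV effects too. The common coefficient of variation was 0.3285 with 12 and 0.1315 with 11 libraries, and the median SE of EV effects 0.36 and 0.17. Few EV calls with 12 libraries therefore do not show that EV cells lacked a response. The median response difference over all genes tested was near 0, at -0.01 and 0.03. In bulk RNA, fewer cells expressing a gene and less RNA per cell cannot be told apart. In fits with GC offsets, which could test only the genes with a known GC content, the split was 1197 more positive and 1138 more negative of 12157 genes with 12 libraries (255 and 119 without the offsets). With 11 libraries it was 1949 and 2285 of 12334 (1268 and 991 without them). Over all genes tested, median transcript GC content was 42.6% for genes with a positive difference and 55.5% for those with a negative one with 12 libraries, and 44.5% and 53.4% with 11. Among TRB-only genes with 12 libraries the medians were 44.6% for those that rose and 50.2% for those that fell, and with 11 they were 45.4% and 53.4%. The order was the other way round in the class stronger with TRB with 11 libraries, defined in the next paragraph, at 52.9% for more positive and 48.05% for more negative genes.

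The genes called were sorted by the shape of their response in each vector. A gene belongs to the TRB-only class when its response difference and its T3 effect with TRB both passed and its T3 effect with EV was under 1.5-fold, which does not show that EV cells lacked a response. The class stronger with TRB holds genes whose EV effect was at least 1.5-fold and in the same direction but smaller. Opposite genes had effects of different sign, both at least 1.5-fold with an unadjusted p under 0.05. Weaker genes had an EV effect of at least 1.5-fold. Their TRB effect was either in the same direction and smaller, or under 1.5-fold in either direction. With 12 libraries, 256 genes were TRB-only (165 up, 91 down), 100 were stronger with TRB (79 up, 21 down), 5 were opposite, 1 was weaker with TRB and 12 had another pattern. With 11 libraries the counts were 1721 (905 up, 816 down), 295 (233 up, 62 down), 38, 59 and 146. The median ratio of the TRB effect to the EV effect was then -0.38 in the weaker class, so most of these 59 genes had effects of different sign. In the TRB-only class, where EV effects were under 1.5-fold, it was -0.98 with 11 and 4.8 with 12 libraries. Of the genes classed with 12 libraries, 255 of 256 TRB-only genes, 97 of 100 stronger genes, and all of the opposite and weaker genes had the same class with 11. Equal responses, where both T3 effects passed in the same direction and the 95% interval of the response difference lay within 1 log2 unit of 0 on either side, numbered 4 and 344.

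**Figure D1:**
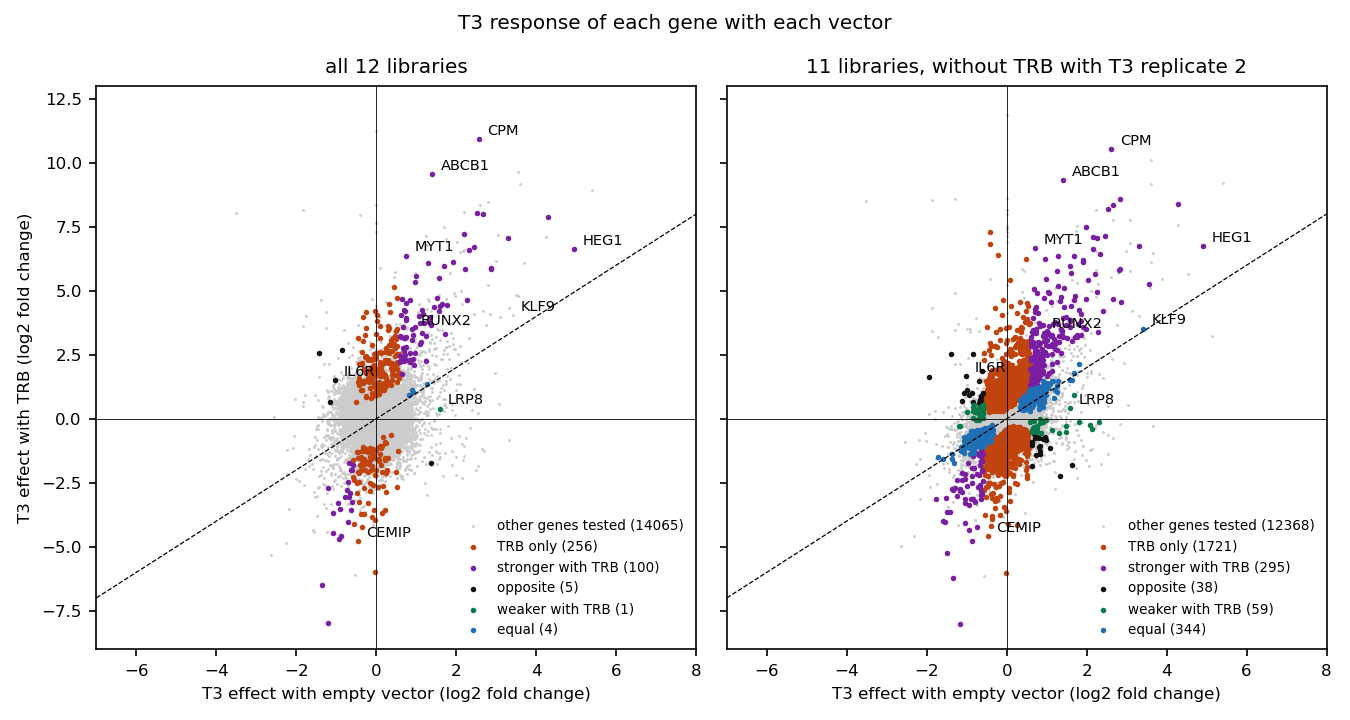
T3 effect of every gene tested with the empty vector (x axis, log2 fold change) and with TRB (y axis, log2 fold change), coloured by class, with all 12 libraries (left) and with 11 (right). Grey points include calls of another pattern, the dashed line marks equal effects, and fitted effects of genes at or near 0 in vehicle, such as CPM and ABCB1, depend on the prior count. The TRB-only class forms a vertical band of 256 genes on the left and 1721 on the right.

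The calls depend on the TRB-T3 libraries, so where these lie in called genes describes the calls and is no further evidence for them. Of the 255 more positive genes, 253 had all 3 TRB-T3 libraries above all 9 libraries of the other groups, a pattern that 8.13% of all genes tested showed. Of the 119 more negative genes, 116 had these 3 libraries below all others, against 10.3% of all genes tested. With 11 libraries the 2 remaining TRB-T3 libraries lay above all others in 1130 of 1268 more positive genes (15% of all genes tested) and below them in 853 of 991 more negative ones (15.4%). Leaving out 7 more positive genes whose vehicle libraries of 1 vector all held 3 counts or fewer, the median response difference was 2.04 for the more positive genes, and its median size for the more negative ones was 1.77 log2 units. The smallest differences called were 0.90 and 0.78 log2 units in size with 12 libraries, and 0.40 and 0.39 with 11.

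MYT1, a zinc finger transcription factor known from neural development (GRCh38, chr20:64102394-64242253), had the largest response difference among named genes that could be sized. It stood at 3.69, 3.68 and 3.40 cpm in EV-vehicle and 4.17, 5.49 and 8.61 in EV-T3. In TRB cells it stood at 2.44, 2.50 and 2.18 with vehicle and 239.6, 120.0 and 233 with T3. All 3 TRB-T3 libraries lay far above the other 9, while the EV groups lay close to each other without overlap. T3 raised MYT1 by 6.37 log2 units with TRB (edgeR adjusted p = 3.31e-06), and its effect with EV was 0.74 (edgeR adjusted p = 0.805). The response difference was 5.63 ± 0.46 with 12 and 5.98 ± 0.29 with 11 libraries (edgeR adjusted p = 0.000305 and 1.19e-07).

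The carboxypeptidase M gene CPM, which encodes a membrane enzyme that trims basic residues from peptide ends (chr12:68842197-68971570), was nearly silent without hormone. It stood at 0.434, 0.572 and 0.184 cpm in EV-vehicle, and 2.93, 2.75 and 1.27 in EV-T3. With TRB it stood at 0.102, 0.0862 and 0 with vehicle, at or under 3 counts in each library, and 108, 222 and 104 with T3. Against that floor of 3 counts per library, T3 left it at least 533-fold higher with TRB, or at least 390.5-fold higher without TRB-T3 replicate 2. With EV the ratio of the means was 5.83, and the groups did not overlap. The responses differed between vectors (edgeR adjusted p = 0.00215 with 12 and 0.000103 with 11 libraries). ABCB1, the drug efflux pump P-glycoprotein (chr7:87503633-87713323), went from 0.102, 0 and 0.168 with vehicle to 63.9, 109 and 64.5 cpm with T3 in TRB cells, at least 291-fold higher, or at least 236-fold higher without TRB-T3 replicate 2. In EV cells it was at 0, 0.0817 and 0.276 with vehicle and 0.463, 0.423 and 0.253 with T3, and no fold is given because its vehicle libraries were at the floor and its T3 libraries held at most 4 counts. The responses of ABCB1 differed (edgeR adjusted p = 0.00987 with 12 and 0.0013 with 11 libraries), but not without EV-vehicle replicate 3 (edgeR adjusted p = 0.184).

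RUNX2, a Runt-domain transcription factor of bone development (chr6:45328157-45664349), had T3 effects in the same direction with both vectors and a larger one with TRB. It stood at 18.9, 16.7 and 14.3 cpm in EV-vehicle, 31.3, 35.5 and 25.3 in EV-T3, 9.96, 9.13 and 10.7 in TRB-vehicle, and 103, 143 and 96.2 in TRB-T3. The 4 groups did not overlap, and TRB cells had the lowest level with vehicle and the highest with T3. Its T3 effect was 3.52 log2 units with TRB and 0.89 with EV, and the latter passed with 11 libraries (0.92, edgeR adjusted p = 0.0041) but not with 12 (edgeR adjusted p = 0.186). The response difference was 2.62 ± 0.30 and 2.44 ± 0.22 (edgeR adjusted p = 0.00206 and 2.52e-05). RUNX1 moved the other way, with T3 effects of -1.74 with TRB and -0.35 with EV and a response difference of -1.39 ± 0.26 (edgeR adjusted p = 0.0192), and its call was lost in 5 of 12 fits that left out 1 library (adjusted p up to 0.0696).

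KLF9, a Kruppel-like factor and a direct T3 target in many tissues (chr9:70384597-70414624), showed another shape. It rose from 14.6, 14.5 and 13.14 cpm with vehicle to 155, 169 and 123 with T3 in EV cells, and from 7.93, 10.9 and 9.32 to 104, 257 and 105 in TRB cells. The T3 libraries of the vectors overlapped only through TRB-T3 replicate 2, the highest of all, since the other TRB-T3 libraries lay below the 3 EV-T3 libraries. With vehicle, each TRB vehicle library was below each EV vehicle library. With 11 libraries the T3 effects were 3.52 log2 units with TRB and 3.42 with EV, and the response difference was 0.10 with a 95% interval of -0.38 to 0.58, an equal response. With 12 libraries the response difference was 0.64 with an interval of -0.39 to 1.67, too wide to class it as equal. HR, a corepressor gene that T3 is known to induce, also fell in the equal class with 11 libraries, at -0.13 with an interval of -0.67 to 0.40. In TRB-T3 replicate 2 HR stood at 3.42 cpm against 46.4 and 52.7 in the other libraries of its group, and with 12 libraries neither its T3 effects nor the difference passed.

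**Figure D2:**
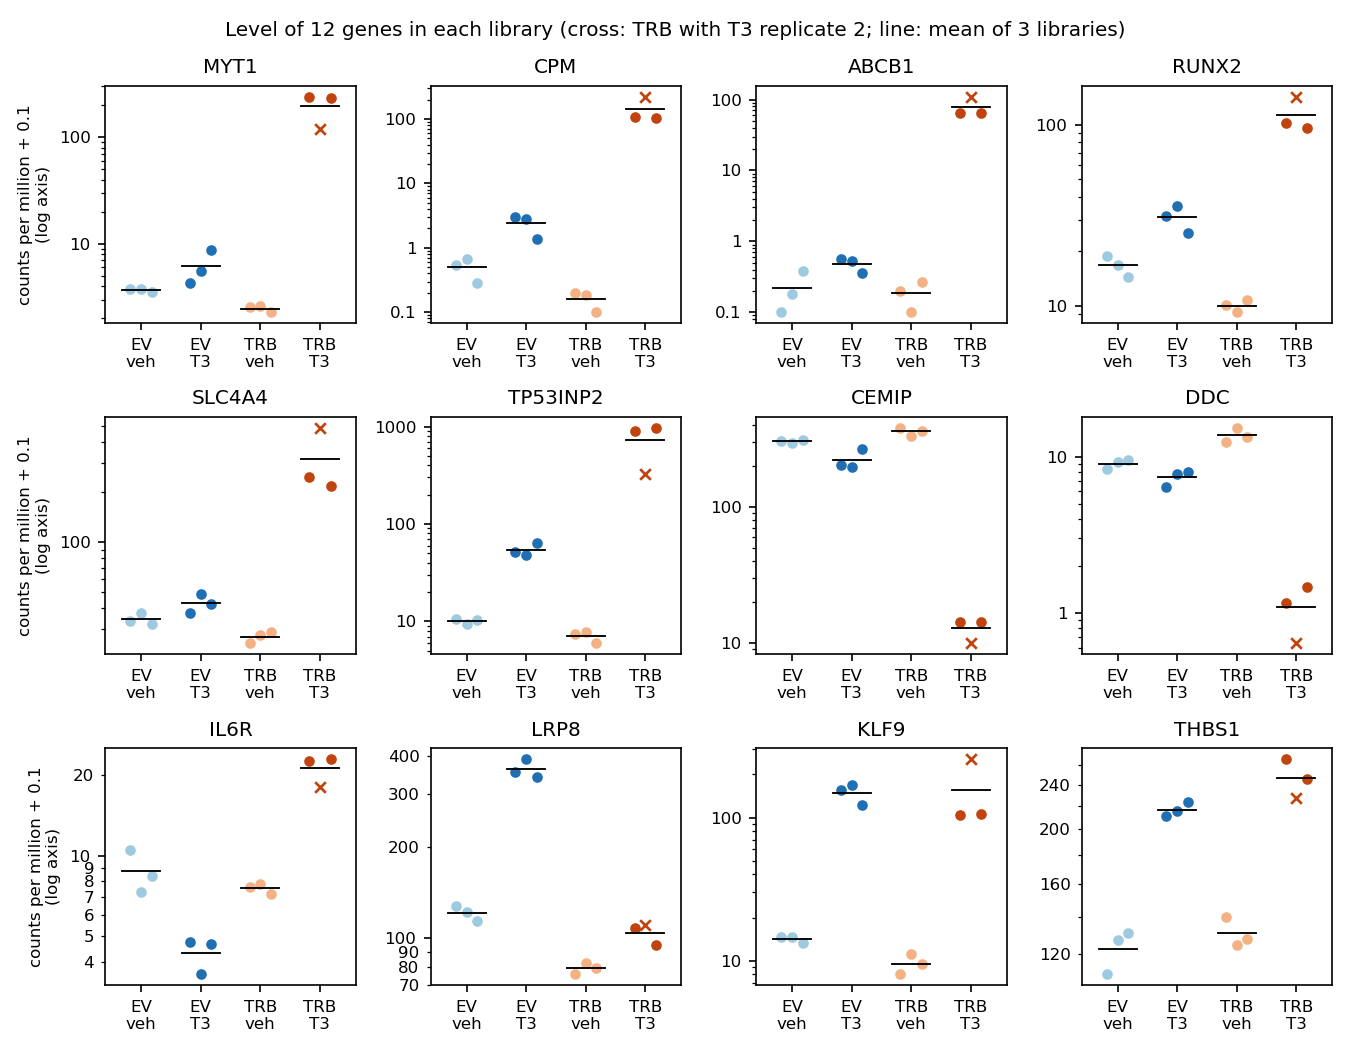
Levels of 12 genes in each library, as cpm plus 0.1 on a log axis, by vector and treatment (veh, vehicle); lines are means of 3 libraries and the cross is TRB-T3 replicate 2. MYT1, CPM, ABCB1, RUNX2, SLC4A4, IL6R and TP53INP2 were highest in TRB-T3, CEMIP and DDC lowest there, LRP8 was highest in EV-T3, and KLF9 and THBS1 rose with both vectors.

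The promoters of these genes were searched for the receptor's hexamer because the responses are to a receptor that binds it. The search gene by gene covered the fixed genes (listed with the processing) and those named for their class, not genes named only through a list. Of the searched genes with an entry in the RefSeq promoter table (GRCh38.p14), 4 held AGGTCA or its reverse complement in the 250 bases before the start: 2 of the stronger class, 1 of the TRB-only class that fell and 1 of the equal class. Each is shown with neighbouring bases on the gene's strand, 5′ to 3′, with the hexamer, or its reverse complement TGACCT, in capitals.
CPM, chr12:68933420-68933449, minus strand: cttcTGACCTggggctccagcaaagactgt
RUNX2, chr6:45328222-45328251, plus strand: aagagtactgtgAGGTCAcaaaccacatga
DDC, chr7:50565475-50565504, minus strand: tcaagatttcctTGACCTttgtcaccatca
MICAL2, chr11:12138296-12138325, plus strand: cacaagcatgcgTGACCTcttggaggagac
The first base of the hexamer lay 246, 96, 87 and 82 bases before the start of CPM, RUNX2, DDC and MICAL2. By GENCODE 29, the windows shown for CPM, RUNX2 and MICAL2 lie inside the span of the same gene, which has other starts further upstream, and that of DDC lies just outside it. MYT1, ABCB1, KLF9 and CEMIP held no AGGTCA on either strand in this window. Over classes, 16.9% of promoters (10 of 59) held it among genes stronger with TRB and rising (12 libraries), 5.74% among TRB-only genes that rose (7 of 122), and 11.9% among TRB-only genes that fell (7 of 59). With 11 libraries the shares were 13.3%, 7.76% and 9.89%, and the equal genes that rose had 14.7%. The share was 8.57% of the 9505 tested genes with an entry and 12.1% of all 27305 promoters in the table. Genes stronger with TRB that fell had 0 of 16 with 12 libraries and 6.82% with 11. The variant GGGTCA, also searched, was in 6.78% of promoters of stronger genes that rose (12 libraries), against 12.1% of tested genes with an entry. Either hexamer was in 22% of that class, against 19.4%. Among the genes searched singly, PLOD2 and UGT1A8 held GGGTCA. The direct repeat of AGGTCA with any 4 bases between the copies was in no promoter of a tested gene and in 4 of the whole table. The response class and the presence of these letters are described side by side, and a match is not a binding site.

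Among TRB-only genes that rose, the named ones were SH3BP5, PDE5A, NMI, OTUD1, SLC4A4, TP53INP1 and PLOD2. SLC4A4, a sodium bicarbonate cotransporter, stood at 33.5, 37.3 and 32.1 cpm in EV-vehicle, 37.7, 48.8 and 42.3 in EV-T3, 24.6, 27.5 and 28.8 in TRB-vehicle, and 248, 489 and 218 in TRB-T3. The TRB-T3 libraries lay above all others, replicate 2 highest. The response difference of SLC4A4 was 3.24 ± 0.40 with 12 and 2.83 ± 0.18 with 11 libraries (edgeR adjusted p = 0.00263 and 1.69e-06). SH3BP5, which binds the kinases BTK and JNK, stood at 1.73 to 1.93 cpm in TRB-vehicle and 30.9, 42.1 and 28.7 in TRB-T3, while the EV libraries spanned 2.17 to 4.30 over both treatments. Its response difference was 4.23 ± 0.39 (edgeR adjusted p = 0.000569), the most positive of these 7 genes, and 4.18 ± 0.30 with 11 libraries. PDE5A, a phosphodiesterase that breaks down cyclic GMP, stood at 169, 469.5 and 156 cpm in TRB-T3, against 10.9 to 31.3 in the other groups. Its response difference was 3.84 ± 0.66, and 3.14 ± 0.38 with 11 libraries.

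The remaining named genes of the class that rose differed in how far they rested on single libraries. The deubiquitinase gene OTUD1 (3.55 with 12 and 3.07 with 11 libraries) and TP53INP1, a p53-induced stress gene (3.15 and 2.79), kept their calls in all 12 fits that left out 1 library. NMI, an interferon-inducible partner of STAT proteins, stood at 17.1, 72.0 and 15.5 cpm in TRB-T3, and its response difference of 3.55 was 2.46 without replicate 2. PLOD2, a lysyl hydroxylase of collagen crosslinking, stood at 168, 654 and 181, and its difference of 2.98 was 2.06 without it. The call was lost in 9 of 12 fits that left out 1 library for NMI and PLOD2 (edgeR adjusted p up to 0.129 and 0.138) and in 1 for PDE5A (without TRB-vehicle replicate 1, edgeR adjusted p = 0.0513).

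Among TRB-only genes that fell, CEMIP had the most negative response difference of those named. CEMIP encodes a hyaluronan-binding protein needed for hyaluronan breakdown (chr15:80779343-80951776). It stood at 303, 295 and 308 cpm in EV-vehicle, 201, 194 and 264 in EV-T3, 379, 330.3 and 359.6 in TRB-vehicle, and 14.2, 9.89 and 14.2 in TRB-T3. The 4 groups did not overlap, and TRB-T3 lay far below the rest. Its T3 effect was -4.79 log2 units with TRB and -0.46 with EV, the latter passing with 11 libraries (edgeR adjusted p = 0.0288) and not with 12 (edgeR adjusted p = 0.706). The response difference was -4.34 ± 0.27 with 12 and -4.14 ± 0.18 with 11 libraries (edgeR adjusted p = 5.16e-05 and 7.37e-08), and it held in every fit that left out 1 library. DDC, the decarboxylase that makes dopamine and serotonin (chr7:50458436-50565457), stood at 8.25, 9.15 and 9.47 cpm in EV-vehicle, 6.33, 7.71 and 7.85 in EV-T3, 12.4, 15.2 and 13.3 in TRB-vehicle, and 1.05, 0.54 and 1.37 in TRB-T3. The TRB-T3 libraries were lowest and the TRB vehicle libraries highest. The response difference of DDC was -3.42 ± 0.35 and -3.17 ± 0.27 (edgeR adjusted p = 0.00133 and 1.81e-05).

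Other genes of this kind were PHGR1, ADRA2A, FJX1, KIF21B, the pseudogene ZDHHC8P and RP11-834C11.11, a gene with no assigned name. ADRA2A, the alpha-2A adrenergic receptor, stood at 15.2 to 21.3 cpm over both EV groups, 7.32, 10.3 and 7.72 in TRB-vehicle, and 1.88, 0.36 and 1.5 in TRB-T3. Its 3 levels, EV, TRB-vehicle and TRB-T3, did not overlap, and the response difference was -2.81 ± 0.50, or -2.41 ± 0.31 with 11 libraries. PHGR1 stood at 33.9, 25.9 and 30.2 with vehicle and 3.15, 0.36 and 3.0 with T3 in TRB cells (difference -3.84 with 12, -3.31 with 11 libraries). KIF21B, a kinesin motor, stood at 31.2, 27.6 and 30.1 and then 5.93, 1.62 and 3.87 (difference -2.42 and -2.03). FJX1, ZDHHC8P and RP11-834C11.11 had differences of -2.52, -2.65 and -3.08 with 12 libraries, and -2.12, -2.44 and -2.80 with 11. Calls were lost in 8 of 12 fits that left out 1 library for ADRA2A and PHGR1, 9 for KIF21B and 10 for FJX1 (edgeR adjusted p up to 0.0719, 0.0875, 0.0941 and 0.126), and in none for CEMIP, DDC, ZDHHC8P and RP11-834C11.11. ZDHHC8P and RP11-834C11.11 may share reads with related or overlapping genes, since the strand setting was not given in the sources used here.

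Of genes stronger with TRB, TP53INP2, which acts in autophagy, responded to T3 with both vectors. It stood at 10.4, 9.40 and 10.2 cpm in EV-vehicle, 51.5, 48.4 and 63.5 in EV-T3, 7.32, 7.67 and 5.88 in TRB-vehicle, and 904, 328 and 971 in TRB-T3. Each step was without overlap. T3 raised it by 2.44 log2 units with EV (edgeR adjusted p = 0.024) and 6.72 with TRB (edgeR adjusted p = 5.07e-06), and the difference was 4.28 ± 0.49 with 12 and 4.68 ± 0.19 with 11 libraries. TNFSF10, the death ligand TRAIL, stood at 6.51, 7.93 and 7.72 in EV-vehicle, 15.7, 18.6 and 9.62 in EV-T3, 6.81, 5 and 5.88 in TRB-vehicle, and 179, 487 and 174 in TRB-T3. Its EV groups did not overlap, and TRB-T3 was far above them, with a difference of 4.58 ± 0.58, or 3.94 ± 0.29 with 11 libraries. APOL1, an interferon-inducible apolipoprotein, stood at 0.434, 0.163 and 1.1 in EV-vehicle, 3.70, 3.28 and 3.04 in EV-T3, 0, 0.259 and 0.336 in TRB-vehicle, and 62.6, 49.6 and 62.1 in TRB-T3. Its difference was 5.53 ± 0.89 (edgeR adjusted p = 0.01), or 5.65 ± 0.83 with 11 libraries, and the call was lost without EV-vehicle replicate 3 (edgeR adjusted p = 0.101). The TRB-vehicle libraries of APOL1 were near the floor, so the size of its difference is uncertain and depends on the prior count.

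**Figure D3:**
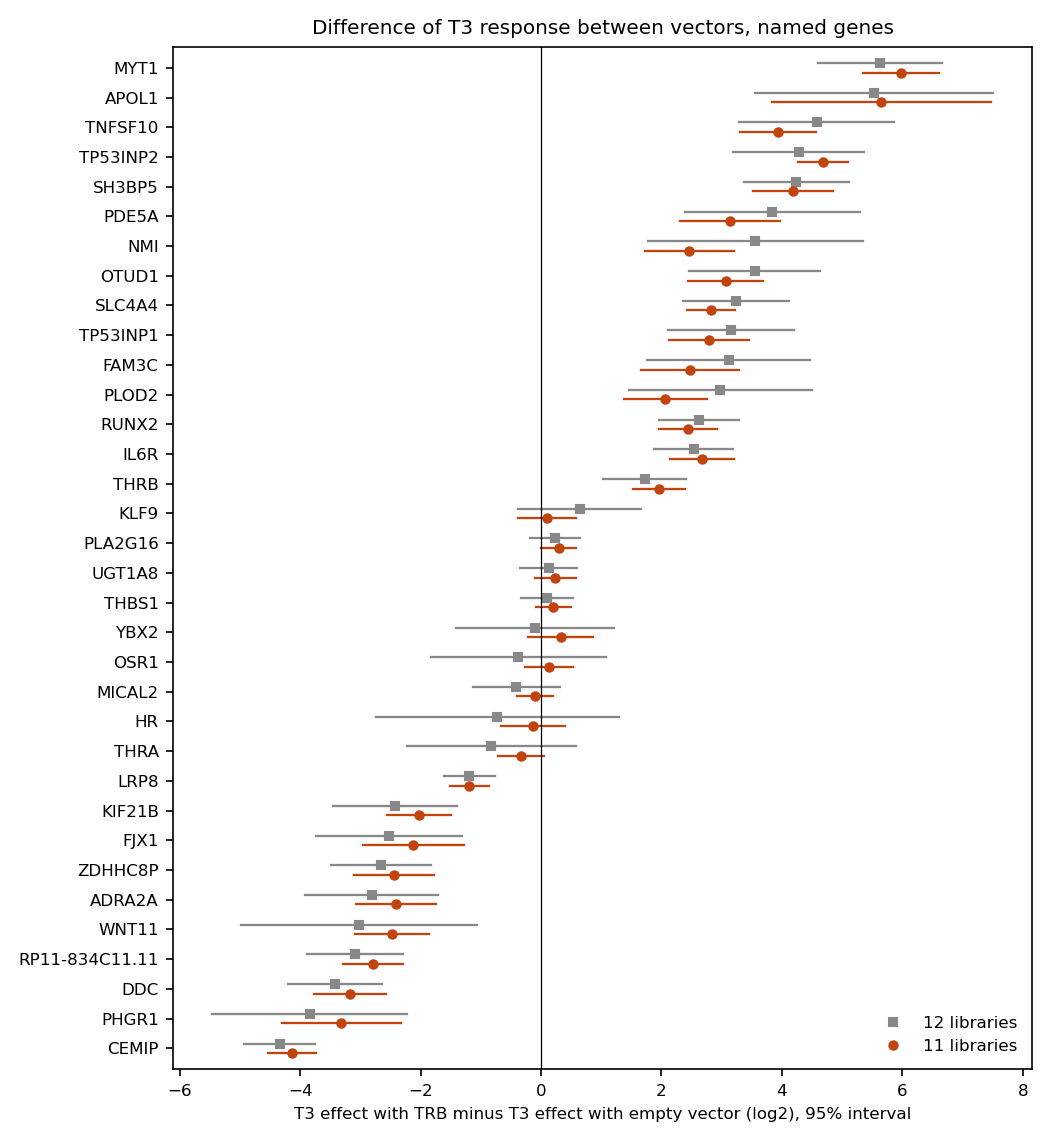
Response difference of the named genes (T3 effect with TRB minus T3 effect with empty vector, log2) with 95% intervals, from 12 libraries (grey squares) and from 11 (red circles); CPM and ABCB1 are left out because their vehicle libraries were at the floor. Intervals are mostly narrower with 11 libraries, and those of KLF9, THBS1, UGT1A8, HR, THRA, YBX2, OSR1 and MICAL2 include 0 in both fits. APOL1 is shown although its TRB-vehicle libraries were near the floor, and its size depends on the prior count.

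Opposite responses were few. The 5 genes with 12 libraries were DRAM1, GCNT1, IL6R, PPARGC1A and RN7SKP97, and only IL6R was abundant enough to be named by the rule. IL6R, the receptor of interleukin 6, stood at 10.4, 7.19 and 8.27 cpm in EV-vehicle and 4.63, 3.49 and 4.56 in EV-T3, and at 7.52, 7.75 and 7.05 in TRB-vehicle and 22.5, 18 and 23.0 in TRB-T3. The vehicle groups of the vectors overlapped, and their T3 groups lay on opposite sides of them. The T3 effects were 1.51 with TRB and -1.03 with EV, the latter with an edgeR adjusted p of 0.118 with 12 libraries and 0.00804 with 11. The response difference was 2.54 ± 0.30 and 2.67 ± 0.24 (edgeR adjusted p = 0.00206 and 2.75e-05). DRAM1, a lysosomal autophagy gene, and GCNT1, a glycosyltransferase of mucin sugars, had differences of 3.53 and 4.01, or 3.40 and 3.94 with 11 libraries. PPARGC1A, a coactivator of energy metabolism and a T3 target in liver and muscle, had T3 effects of 0.65 with TRB and -1.15 with EV and a difference of 1.80 ± 0.37 (edgeR adjusted p = 0.0306), or 1.83 ± 0.38 with 11 libraries (edgeR adjusted p = 0.00699). Its call was lost in 10 of 12 fits that left out 1 library, with an adjusted p of up to 0.125.

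FAM3C and WNT11 were added from the opposite class of the 11 libraries, after their values were seen. FAM3C, which encodes a secreted cytokine-like protein, stood at 19.6, 21.4 and 19.9 cpm in EV-vehicle and 11.9, 18.4 and 7.09 in EV-T3, against 11.1, 16.5 and 18.8 and then 53.9, 142 and 54.7 in TRB cells. WNT11, a Wnt ligand, stood at 10.4, 10.9 and 11.4 and then 16.8, 13.4 and 22.3 in EV cells, and at 14.0, 14.3 and 15.7 and then 3.30, 0 and 4.87 in TRB cells. In both genes EV-T3 replicate 3, the shallowest library, was the value farthest from vehicle. Their EV effects of -0.63 and 0.64 had an edgeR adjusted p of 0.15 and 0.0502, while their response differences of 2.48 ± 0.37 and -2.47 ± 0.28 passed (edgeR adjusted p = 0.000926 and 0.000129, 11 libraries). With 12 libraries the difference of FAM3C passed and that of WNT11 did not (edgeR adjusted p = 0.0248 and 0.114), and the call of FAM3C was lost in 8 of 12 fits that left out 1 library (adjusted p up to 0.0781).

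LRP8, the receptor of reelin and apolipoprotein E, was the one gene whose response was weaker with TRB in both fits. It stood at 128, 122 and 114 cpm in EV-vehicle, 355, 393 and 343 in EV-T3, 75.6, 82.7 and 79.2 in TRB-vehicle, and 108, 109.9 and 94.4 in TRB-T3. No groups overlapped, and TRB-T3 stayed below EV-vehicle. T3 raised LRP8 by 1.59 log2 units with EV (edgeR adjusted p = 0.00092), and its effect with TRB was 0.39 (edgeR adjusted p = 0.0789), or 0.40 with 11 libraries (edgeR adjusted p = 0.0145). The response difference was -1.19 ± 0.19 with 12 and -1.19 ± 0.15 with 11 libraries (edgeR adjusted p = 0.01 and 0.000285).

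Equal responses with 12 libraries were found for UGT1A8, PLA2G16, THBS1 and SLC28A3. THBS1, the secreted matrix protein thrombospondin, stood at 110.5, 127 and 131 cpm in EV-vehicle, 211, 216 and 224 in EV-T3, 139.5, 125 and 127 in TRB-vehicle, and 267, 227 and 246 in TRB-T3. The vehicle groups of the vectors overlapped, the T3 groups lay above both, and TRB-T3 lay slightly above EV-T3. T3 raised THBS1 by 0.82 log2 units with EV and 0.92 with TRB, and the response difference of 0.10 had a 95% interval of -0.33 to 0.53 (0.20 with 11 libraries). PLA2G16, a phospholipase, had a difference of 0.23 (interval -0.18 to 0.65), and UGT1A8, a glucuronosyltransferase, 0.13 (interval -0.34 to 0.60). With 11 libraries the difference of PLA2G16 was 0.29, and its interval of 0.001 to 0.585 lay just above 0. UGT1A8 shares exons with its neighbouring family members, so its counts are uncertain. With 11 libraries the equal class also held YBX2, OSR1 and MICAL2, added after their values were seen, whose T3 effects were 1.52 to 2.13 with TRB and 1.63 to 1.80 with EV. In TRB-T3 replicate 2, YBX2, OSR1 and MICAL2 stood at 9.71, 14.2 and 202 cpm, against 34.8 and 42.2, 76.2 and 77.2, and 404 and 386 in the other libraries of that group.

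Gene lists for receptor function came next. In the list of receptors, RXR partners and coregulators, 1 of 16 tested members was more positive (THRB) and 1 more negative (TBL1X) with 12 libraries (12.5% against 2.59% of all genes tested). With 11 libraries NCOA1, a coactivator, joined the more positive ones (0.71, edgeR adjusted p = 0.0484), and the share called, 18.8%, was near the 15.2% of all genes. TBL1X, a subunit of the NCoR corepressor complex, stood at 127, 118 and 124 cpm in EV-vehicle, 89.2, 85.1 and 93.4 in EV-T3, 112, 122 and 118 in TRB-vehicle, and 28.1, 25.5 and 29.5 in TRB-T3. TRB-T3 lay far below the other groups. T3 lowered TBL1X by 2.08 log2 units with TRB (edgeR adjusted p = 8.75e-06), and its EV effect of -0.46 passed with 11 libraries and not with 12 (edgeR adjusted p = 0.0103 and 0.389). Its response difference was -1.62 ± 0.19 and -1.52 ± 0.14 (edgeR adjusted p = 0.00215 and 2.52e-05). Of 14 tested genes of the general T3 response list, 2 were called with 12 libraries (PPARGC1A and ATP2A2, the calcium pump of the endoplasmic reticulum), both more positive (14.3% against 2.59% of all genes tested), and the call of ATP2A2 was lost in 6 of 12 fits that left out 1 library (edgeR adjusted p up to 0.0623). Of 15 tested with 11 libraries, 5 were more positive and 1 more negative (40% against 15.2%). PFKFB3, a glycolysis regulator, and the protease gene FURIN had differences of 2.43 and 2.16 with 11 libraries (edgeR adjusted p = 1.98e-06 and 5.72e-05), against 2.02 and 1.57 with 12 (edgeR adjusted p = 0.0553 and 0.331). FURIN stood at 460.2, 35.1 and 496 cpm in TRB-T3.

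Carriers of thyroid hormone moved in both directions. With 11 libraries 2 of 8 tested genes of transport and deiodination were more positive and 3 more negative (62.5% against 15.2% of all genes tested). With 12 libraries 1 of 7 was more positive and none more negative (14.3% against 2.59%). That gene was SLC17A4, an anion carrier that also transports thyroid hormone (edgeR adjusted p = 0.049), and its call was lost in 11 of 12 fits that left out 1 library (adjusted p up to 0.221). SLC7A5 and SLC3A2, which together form a transporter of large amino acids that also carries T3, had response differences of -1.33 ± 0.22 and -1.15 ± 0.20 with 11 libraries (edgeR adjusted p = 0.00185 and 0.00223). SLC7A5 stood at 695, 724 and 691 cpm in TRB-vehicle and 173, 18.4 and 206 in TRB-T3. SLC7A8, another partner of SLC3A2, had a difference of 2.48 ± 0.58 (edgeR adjusted p = 0.0129). With 12 libraries none of these 3 passed (edgeR adjusted p = 0.245, 0.192 and 0.0886).

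Part of the antiviral and antigen presentation genes responded to T3 more with TRB. Of 30 tested interferon-stimulated genes, 5 were more positive and none more negative with 12 libraries (16.7% against 2.59% of all genes tested), and 15 and 1 with 11 (53.3% against 15.2%). The 5 were DDX60, HERC6, IFIT5, MX1 and PARP14. MX1, an antiviral GTPase, had a T3 effect of 2.86 with TRB and 0.31 with EV, and a response difference of 2.55 ± 0.51 with 12 and 2.52 ± 0.53 with 11 libraries (edgeR adjusted p = 0.0273 and 0.00757). IRF1, a transcription factor of interferon responses, passed with 11 libraries at 2.28 ± 0.19 (edgeR adjusted p = 1.25e-05) and not with 12 (edgeR adjusted p = 0.0588). OAS1, an activator of RNase L, was the more negative member, at -0.58 (edgeR adjusted p = 0.039, 11 libraries). The list's median response difference was 1.45 with 12 and 0.93 with 11 libraries, or 1.40 and 0.78 without 5 genes whose vehicle libraries of 1 vector were at the floor. DDX60 stood at 0.203, 0.259 and 0.588 cpm in TRB-vehicle and 8.48, 23.2 and 8.12 in TRB-T3, and its call was lost in 8 of 12 fits that left out 1 library (edgeR adjusted p up to 0.11). Such losses numbered 8 for MX1 and 6 for PARP14 (edgeR adjusted p up to 0.0976 and 0.0556), and 0 for HERC6 and IFIT5.

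Of the MHC class I list, 4 of 16 tested genes (ERAP1, ERAP2, B2M and TAP2) were more positive with 12 libraries (25% against 2.59% of all genes tested) and 11 of 18 with 11 (61.1% against 15.2%), and none was more negative. ERAP2, an aminopeptidase that trims peptides for MHC class I, stood at 22.8, 24.6 and 23.4 cpm in EV-vehicle, 60.4, 73.0 and 45.6 in EV-T3, 17.3, 16.6 and 16.8 in TRB-vehicle, and 198, 422 and 178 in TRB-T3. The groups did not overlap, and its difference was 2.64 and 2.17 ± 0.22 (edgeR adjusted p = 0.0117 and 5.77e-05). B2M, the shared light chain of class I molecules, stood at 128, 142 and 136 in TRB-vehicle and 374, 709.7 and 412 in TRB-T3, while the EV groups overlapped. Its difference was 1.81 ± 0.33 with 12 and 1.5 ± 0.18 with 11 libraries (edgeR adjusted p = 0.0191 and 0.000148). TAP1 and TAP2, the subunits of the peptide transporter, had T3 effects of 2.28 and 2.49 with TRB and 0.91 and 0.99 with EV with 11 libraries, and differences of 1.37 and 1.5 (edgeR adjusted p = 0.00516 and 0.000605). Calls were lost in 6 of 12 fits that left out 1 library for B2M and 1 for TAP2 (edgeR adjusted p up to 0.0596 and 0.0502), and in none for ERAP1 and ERAP2. The list's median response difference was 0.99 with 12 and 1.43 with 11 libraries. Reads of the closely related HLA genes may have been split between them. CD14, a monocyte marker, also stood at 9.23 and 9.74 cpm in TRB-T3 replicates 1 and 3, against 0.18 in replicate 2 and at most 2.28 in the other groups. In the same list of markers PTPRC, which defines leukocytes, stood at 0.217 or less in every library, and CD3E, which defines T cells, was at 0 in all 12.

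The ABC drug efflux list had 5 of 10 genes (ABCB1, ABCB4, ABCC2, ABCC4 and ABCG2) more positive with 12 libraries (50% against 2.59% of all genes tested) and 6 with 11 (60% against 15.2%), and none more negative. Calls were lost in 4 of 12 fits that left out 1 library for ABCC2 and 10 for ABCB4 (edgeR adjusted p up to 0.086 and 0.125). ABCG2, the breast cancer resistance protein, stood at 6.30, 5.07 and 5.24 cpm in EV-vehicle, 55.2, 53.0 and 53.1 in EV-T3, 3.25, 2.93 and 2.18 in TRB-vehicle, and 292, 548 and 279 in TRB-T3. T3 raised it in both vectors without overlap, by 3.29 log2 units with EV (edgeR adjusted p = 0.00092) and 7.06 with TRB (edgeR adjusted p = 9.51e-07). Its response difference was 3.77 ± 0.39 and 3.41 ± 0.21 (edgeR adjusted p = 0.00133 and 8.87e-07). ABCC4 and ABCB4 had differences of 1.97 and 1.90 with 12 and 1.76 and 1.68 with 11 libraries. ABCC1, in contrast, was in the equal class with 11 libraries, at 0.16. ABCB4 is a close paralogue of ABCB1, and its counts may share reads with it. ABCB1 was also a fixed gene, chosen with earlier results of these data known, so its call was no new count for this list. The list's median response difference was 1.20 with 12 and 1.33 with 11 libraries, or 0.50 and 0.97 without ABCB1, which was at the floor with vehicle.

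Of 21 tested genes of cholesterol and fatty acid synthesis, 2 were more positive with 12 libraries (9.52% against 2.59% of all genes tested) and 9 with 11 (42.9% against 15.2%), and none was more negative. SCD, the desaturase that makes monounsaturated fatty acids, stood at 259, 239 and 253 cpm in EV-vehicle, 370.1, 359 and 381 in EV-T3, 173, 186 and 181 in TRB-vehicle, and 1046, 1062 and 992 in TRB-T3. The 3 TRB-T3 libraries lay far above the rest and close together, replicate 2 included. The response difference of SCD was 1.96 ± 0.18 and 1.99 ± 0.12 (edgeR adjusted p = 0.000487 and 1.1e-06). INSIG1, which retains the sterol sensor complex in the endoplasmic reticulum, had a difference of 1.81 ± 0.32, lost without TRB-vehicle replicate 1 (edgeR adjusted p = 0.0513), and SREBF1, the transcription factor of lipid synthesis, passed with 11 libraries (1.19 ± 0.31, edgeR adjusted p = 0.0234) and not with 12 (edgeR adjusted p = 0.699).

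**Figure D4:**
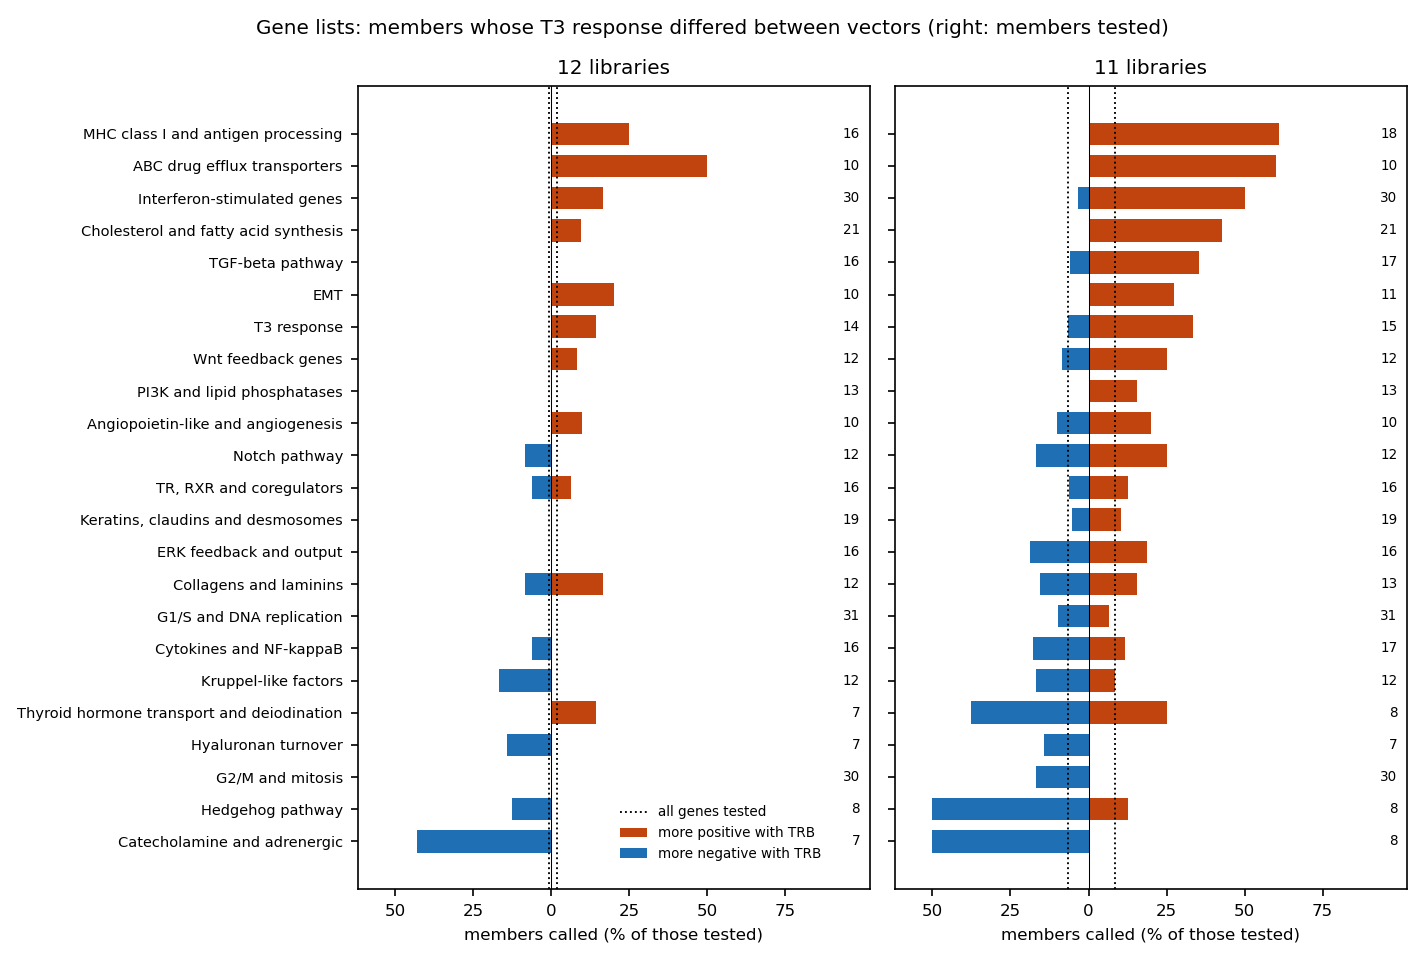
Share of tested list members whose T3 response was called more positive (red, to the right) or more negative (blue, to the left) with TRB, for most lists with at least 5 members tested, with 12 libraries (left) and 11 (right); numbers at the right edge are members tested and dotted lines the shares over all genes tested. The interferon, MHC class I and ABC efflux lists extend to the right in both panels, at 16.7%, 25% and 50% with 12 libraries, and the catecholamine list to the left, at 42.9%.

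In the catecholamine and adrenergic list, 3 of 7 tested genes were more negative with 12 libraries (DDC, ADRA2A and MAOA), 42.9% against 0.825% of all genes tested. With 11 libraries 4 of 8 were, 50% against 6.68%, and none was more positive in either fit. T3 itself lowered 4 of the 8 and raised 2 in TRB cells with 11 libraries. MAOA, which oxidises amines, had a difference of -0.98 ± 0.23 and -1.04 ± 0.15 (edgeR adjusted p = 0.0492 and 0.000836), and ADRB1, the beta-1 adrenergic receptor, one of -1.65 ± 0.42 with 11 libraries (edgeR adjusted p = 0.0203). The call of MAOA was lost in 11 of 12 fits that left out 1 library (edgeR adjusted p up to 0.12). In the Hedgehog list, 1 of 8 genes was more negative with 12 libraries (12.5% against 2.59% of all genes tested), and 4 were more negative and 1 more positive with 11 (62.5% against 15.2%). GLI1, its transcriptional effector and target, stood at 20.9, 19.1 and 20.2 cpm in EV-vehicle, 12.2, 13 and 13.4 in EV-T3, 22.7, 23.8 and 26 in TRB-vehicle, and 2.18, 0.36 and 3.37 in TRB-T3. T3 lowered GLI1 in both vectors with 11 libraries, by more with TRB, and the difference was -2.49 ± 0.23 (edgeR adjusted p = 3.21e-05). With 12 libraries it was -2.91 ± 0.59 (edgeR adjusted p = 0.0281), and its call was lost in 10 of 12 fits that left out 1 library (adjusted p up to 0.106).

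Matrix and adhesion genes split, with 2 of 12 tested collagen and laminin genes more positive and 1 more negative with 12 libraries (25% against 2.59% of all genes tested), and 2 of 13 in each direction with 11 (30.8% against 15.2%). FN1, the matrix protein fibronectin, stood at 14.1, 16.5 and 13.6 cpm in EV-vehicle, 66.2, 72.0 and 73.9 in EV-T3, 10.2, 9.39 and 9.15 in TRB-vehicle, and 303, 147 and 275 in TRB-T3. It rose with both vectors without overlap, by 2.26 log2 units with EV and 4.66 with TRB, and its difference was 2.40 ± 0.35 with 12 and 2.71 ± 0.16 with 11 libraries (edgeR adjusted p = 0.00575 and 7.9e-07). HEG1, a membrane protein of vessel development, rose from 2.17, 3.19 and 2.76 to 85.8, 90.7 and 78.7 with EV, and from 3.66, 2.15 and 2.10 to 287, 234 and 256 with TRB. That difference, 1.68 ± 0.33 with 12 and 1.83 ± 0.28 with 11 libraries (edgeR adjusted p = 0.0257 and 0.00105), was lost in 10 of 12 fits that left out 1 library (adjusted p up to 0.12). Of 9 fibroblast markers, 2 were at 0 in every library, only COL1A1 and ACTA2 exceeded 1 cpm, and their summed level was 18.6 to 21.5 in EV-vehicle, 18.3 to 34.2 in EV-T3, 26.7 to 29.4 in TRB-vehicle and 1.44 to 15.6 in TRB-T3. COL17A1, a collagen of the epithelial anchoring complex, was more negative at -1.33 (edgeR adjusted p = 0.0281), and LAMA3 and LAMC1, laminin chains, more positive at 1.05 and 0.90 (edgeR adjusted p = 0.0223 and 0.0351). With 11 libraries the 3 differences were -1.09, 1.15 and 0.99, and each call was lost in at least 9 of 12 fits that left out 1 library.

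Proliferation genes showed no call with 12 libraries. Of 30 tested genes of G2/M and mitosis none passed the edgeR test then, 3 had an unadjusted p under 0.05, and DESeq2 called 2, both more negative. With 11 libraries 5 were more negative, 16.7% against 15.2% of all genes, a share near that of all genes. CDC20 and PLK1, regulators of mitosis, had differences of -0.95 and -0.81 (edgeR adjusted p = 0.01 and 0.00927). The list's median response difference was 0.25 with 12 and -0.15 with 11 libraries, so its sign depends on TRB-T3 replicate 2. Of 31 tested genes of G1/S and DNA replication, none passed the edgeR test with 12 libraries, 4 had an unadjusted p under 0.05, and DESeq2 called 1 in each direction. With 11 libraries 2 were more positive and 3 more negative, 16.1% and near the 15.2% of all genes.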

How the data were processed

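RNA from 12 libraries was measured as whole-number read counts per gene symbol, deposited by the authors with no normalization. The submitters' processing notes name CASAVA 1.7, STAR 2.7, HTSeq 0.10, DESeq2 and hg38, without saying which step each served, and the annotation and strand setting were not given in the sources used here. Rows of alignments without a gene were left out of library sizes.

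Genes were kept by filterByExpr (minimum count 10, total 15) and scaled by TMM in edgeR 4.0.16 (R 4.3.3). A quasi-likelihood model with 1 coefficient for each of the 4 groups gave the T3 effects and their difference, with Benjamini-Hochberg adjustment over all genes tested and a threshold of 0.05. The fit was repeated without TRB-T3 replicate 2. A standard error is the log2 effect divided by the square root of its F statistic. Levels are counts-per-million (cpm) of counts in genes. A group was at the floor when all its libraries held 3 counts or fewer. The code was tested on counts simulated with a common spread for all genes and T3 effects in TRB cells only. With 12 libraries it called 37.4% of 4-fold and 3.03% of 2-fold differences, and 6.98% of calls were false. With 11 these shares were 87.9%, 53.1% and 4.79%. Of the true calls, 77.5% with 12 and 98.6% with 11 libraries were classed as TRB-only. Many true differences can thus be missed with 12 libraries.

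Fixed genes were MYT1, CPM, ABCB1, RUNX2, KLF9, THRB, THRA and HR. Others were taken by size of the response difference (equal genes by the smaller T3 effect) within each class among genes of average log2 cpm of at least 3 with the same class in both fits, up to 8 each way for TRB-only and up to 6 for other classes. Each list gave its called member of largest difference in each direction, and further list members were named after their values were seen. Some results that the rule would name are not reported here. Comparisons, members and lists were chosen with earlier results of these data known.

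Alternatives were other scaling and filters, DESeq2 1.42.0, a replicate block, GC offsets, and leaving out each library. Promoters came from RefSeq (GRCh38.p14) and gene positions from GENCODE 29 (GRCh38). Of the genes tested with 11 libraries, 9505 of 14825 had a promoter entry.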

Additional observations from a re-analysis of the deposited data

Results flagged for a closer look

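Each result here had a T3 response that differed between vectors by the test of the difference itself (edgeR's quasi-likelihood test, Benjamini-Hochberg adjusted p under 0.05, 12 libraries). Over all genes tested, 374 did so. Among genes that went further up with TRB, the response difference was 5.63 log2 units for MYT1, 5.53 for APOL1, 4.58 for TNFSF10, 4.28 for TP53INP2 and 2.62 for RUNX2. It was 4.23 for SH3BP5, 3.84 for PDE5A, 3.55 for NMI, 3.55 for OTUD1, 3.24 for SLC4A4, 3.15 for TP53INP1, 2.98 for PLOD2 and 1.72 for THRB. The size for APOL1 is uncertain, since its TRB-vehicle libraries were near the floor. For CPM and ABCB1, with vehicle libraries at the floor, the edgeR adjusted p of the difference was 0.00215 and 0.00987. IL6R, at 2.54, had effects of opposite sign in the vectors.

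Among genes that went further down with TRB, the response difference was -4.34 for CEMIP, -3.84 for PHGR1, -3.42 for DDC, -3.08 for RP11-834C11.11, -2.81 for ADRA2A, -2.65 for ZDHHC8P, -2.52 for FJX1 and -2.42 for KIF21B. LRP8, at -1.19, rose less with TRB than with the empty vector.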

How the results depend on the processing

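Without TRB-T3 replicate 2 the response difference was called for 2259 genes in place of 374, and leaving out any other single library left 136 to 358. These ranges over the 12 fits that left out 1 library, 136 to 2259 for response differences, were 1256 to 4938 for T3 effects with TRB, 10 to 1087 for T3 effects with EV, 79 to 1721 for TRB-only, 51 to 295 for stronger, 2 to 38 for opposite, 1 to 59 for weaker, 1 to 146 for another pattern, 0 to 344 for equal and 4 to 114 for genes moved in both vectors but unresolved. In each range the upper end is the fit without TRB-T3 replicate 2. Depth limits genes at the floor, such as CPM and ABCB1, to lower bounds, and leaves sizes near it, such as that of APOL1, uncertain.

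With no count filter 238 response differences passed, with 19 T3 effects with EV, 148 TRB-only, 0 weaker and 0 equal genes. Requiring at least 10 counts in every library gave 3 opposite, 4 weaker, 3 of another pattern and 7 equal. DESeq2 called 1022 response differences and 172 T3 effects with EV, with 760 TRB-only, 161 stronger, 24 opposite, 7 weaker, 70 of another pattern, 30 equal and 52 unresolved. All 374 genes were among these 1022. DESeq2 called 12 interferon-stimulated genes more positive in place of 5. Relative log expression scaling gave 368.

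GC offsets gave 2335 response differences, 5181 T3 effects with TRB and 542 with EV, with 1935 TRB-only, 256 stronger, 23 opposite, 18 weaker, 103 of another pattern, 176 equal and 50 unresolved. The 11 libraries with GC offsets gave 4234, 6907, 2183, 3518, 325, 34, 48, 309, 717 and 77 in that order. Leaving out TRB-T3 replicate 2 and EV-T3 replicate 3 together, chosen after seeing the data, gave 2547, 6060, 754, 2046, 318, 26, 40, 117, 242 and 82. The cause of these changes was not tested.

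The replicate numbers were treated as names. Over 18 pairs of same-numbered libraries the correlation of deviations from the group means ran from -0.19 to 0.728, 12 exceeded 0.1, and 7 of 12 libraries correlated best with their own number. The highest was between replicate 2 of EV-T3 and of TRB-T3. EV-vehicle replicate 2 correlated with these at 0.429 and 0.501, and TRB-vehicle replicate 2 at 0.238 and 0.167. Replicate 2 of the other groups stays in the fit of 11 libraries, and what these libraries share was not tested. The replicate block gave 395 response differences, of which 321 were among the 374 called without it, 18 T3 effects with EV, 18 opposite, 0 equal and 5 unresolved genes. The replicate block with GC offsets gave 2381, 5245 and 441 for the 3 effects, with 1969 TRB-only, 252 stronger, 40 opposite, 19 weaker, 101 of another pattern, 131 equal and 47 unresolved.

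Over 117 named genes and their alternatives, 1865 values kept direction and side of the threshold, 236 no longer passed, 296 newly passed and 23 changed sign. All sign changes were in genes whose difference did not pass with 12 libraries. Without 1 library, YBX2 ranged from -0.488 to 0.327, OSR1 from -0.689 to 0.126 and CDKN1A from -0.0389 to 0.870. GC offsets moved HR to 0.13, UGT1A8 to -0.15, THBS1 to -0.09545, YBX2 to 0.49 and OSR1 to 0.0217. GC offsets with the replicate block gave 0.13, -0.17, -0.10, 0.49 and 0.0119. With GC offsets in 11 libraries, KLF9 was -0.0161, HR 0.16, YBX2 0.38 and OSR1 0.18. Without both TRB-T3 replicate 2 and EV-T3 replicate 3, KLF9 was -0.0300, HR 0.0348, YBX2 0.41 and OSR1 0.21. LRP8 did not pass with no count filter (edgeR adjusted p = 0.109).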

Other observations

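Several signalling genes outside the groups above also had a T3 response that differed between vectors. Of 12 tested Notch genes, 1 was more negative with 12 libraries (8.33% against 2.59% of all genes tested). With 11, 3 were more positive (HES1, HES2 and NOTCH2) and 2 more negative (41.7% against 15.2%). Of 12 tested Wnt feedback genes, 1 was more positive with 12 libraries (8.33%). With 11, 3 were more positive and 1 more negative (33.3%). JAG1, a Notch ligand, stood at 77.1, 91.2 and 92.3 cpm in EV-vehicle, 76.1, 75.1 and 72.6 in EV-T3, 111, 106 and 105 in TRB-vehicle, and 34.1, 31.1 and 28.1 in TRB-T3. The TRB-T3 libraries lay below all others. Its response difference was -1.57 ± 0.21 with 12 and -1.51 ± 0.16 with 11 libraries (edgeR adjusted p = 0.00346 and 6.39e-05). LGR5, a receptor that amplifies Wnt signals, stood at 17.0, 17.4 and 19.5 in TRB-vehicle and 83.5, 128 and 86.7 in TRB-T3, against 16.3 to 18.5 and 21.3 to 30.5 in EV cells. Its difference was 1.88 ± 0.30 and 1.68 ± 0.20 (edgeR adjusted p = 0.00987 and 0.000196).

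KLF4 and KLF11, Kruppel-like factors like KLF9, were more negative with TRB, at -1.20 and -1.05 with 12 libraries (edgeR adjusted p = 0.0348 and 0.049) and -1.17 and -1.15 with 11 (edgeR adjusted p = 0.003 and 0.00119). KLF12, of the same family, was more positive with 11 libraries (1.21, edgeR adjusted p = 0.0128) and did not pass with 12 (1.55, edgeR adjusted p = 0.0872). KLF4 stood at 60.2, 63.7 and 54.7 cpm in TRB-vehicle and 21.2, 24.5 and 25.7 in TRB-T3, while its EV groups overlapped. The calls of KLF4 and KLF11 were lost in 9 and 11 of 12 fits that left out 1 library (edgeR adjusted p up to 0.116 for each). These 2 were the only calls of 12 tested Kruppel-like factors with 12 libraries (16.7% against 2.59% of all genes tested). With 11 libraries the share was 25% against 15.2%. In the list of epithelial-mesenchymal transition it was 20% of 10 tested genes with 12 and 27.3% of 11 with 11 libraries, all more positive. ZEB1, a transcription factor of that transition, had a difference of 3.31 with 12 and 3.04 with 11 libraries at levels of at most 4.86 cpm. Its call was lost in 4 of 12 fits that left out 1 library (edgeR adjusted p up to 0.0848). CDH1, the epithelial cadherin, had a difference of 0.69 with 11 libraries (edgeR adjusted p = 0.00355).

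In the TGF-beta list no gene of 16 passed the edgeR test with 12 libraries, and 6 had an unadjusted p under 0.05. With 11 libraries 6 of 17 were more positive and 1 more negative (41.2% against 15.2% of all genes tested). ENG, a TGF-beta coreceptor, and the ligand gene TGFB3 had differences of 1.71 ± 0.24 and 2.23 ± 0.51 (edgeR adjusted p = 0.000552 and 0.0122).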
